A study of Mus musculus with 6 samples.

Results

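The 789 widest promoter regions that were open in every library are described here, in ATAC-seq of mouse spermatogonia with and without SIRT7. Overlapping peaks of the 6 libraries were merged on chromosomes 1 to 19, and the regions were chosen by their measured width, 3000 bp or more, by a peak in all 6 libraries, and by lying within 3 kb of the 5′ end of a protein-coding gene. They were 0.508% of the 155418 merged regions, 0.886% of the 89049 regions with a peak in all 6 libraries and 5.14% of the 15363 such regions at promoters. Since width chose them, their widths are given as a description and were not tested.

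The libraries came from spermatogonia (testis germ cells that still divide by mitosis) of 129S1/Sv mice at postnatal day (Pnd) 5. S7KO stands for mice without the Sirt7 gene in any tissue (Sirt7-/-) and WT for wild type, with 3 libraries of 50000 cells from each genotype. Titles numbered the libraries 1, 2 and 4 in both genotypes, while a library name in the description gave the first and second of them another number, so the numbers serve only as names. Per the study, germ cells were enriched by differential plating, which removes adherent somatic cells, and were checked by flow cytometry for PLZF, so other testis cells can remain. The PLZF result that the study shows is for WT cells. The study describes the libraries as independent biological replicates, and the labels do not say which or how many mice each came from. In bulk samples, more cells of a type and more open chromatin per cell cannot be told apart.

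In ATAC-seq the Tn5 transposase inserts sequencing adapters where DNA is not packed by nucleosomes, so fragments gather at promoters, enhancers and other open sites. Most promoters are open over a short stretch around the start of the gene. Wide open stretches with many CpG dinucleotides are known at genes of transcription factors that set cell identity and body plan, genes that Polycomb complexes often hold silent but poised in stem and germ cells. SIRT7 is a deacetylase of the sirtuin family that acts on histone H3, among other targets at lysine 36 (H3K36).

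Promoter sequences of 7 genes show the DNA at such regions. Each run is the 250 bases before a start site of the gene, read 5′ to 3′ on its strand, from RefSeq on GRCm38.p6 (mm10), with every CG dinucleotide in capitals. Gsc and Lhx1 stand for the homeobox genes, Foxo1 for genes of undifferentiated spermatogonia and Gdnf for Sertoli cells. Ssbp3 had the widest unbroken peak, and Adgrb2 and Smad6 were regions longer in S7KO and in WT, respectively.
Gsc, chr12:104473237-104473486, minus strand: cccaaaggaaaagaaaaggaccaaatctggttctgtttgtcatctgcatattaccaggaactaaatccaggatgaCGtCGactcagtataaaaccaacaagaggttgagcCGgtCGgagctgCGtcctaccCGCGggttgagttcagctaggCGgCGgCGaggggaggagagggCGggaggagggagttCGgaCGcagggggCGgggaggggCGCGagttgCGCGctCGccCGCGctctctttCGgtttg
Lhx1, chr11:84525535-84525784, minus strand: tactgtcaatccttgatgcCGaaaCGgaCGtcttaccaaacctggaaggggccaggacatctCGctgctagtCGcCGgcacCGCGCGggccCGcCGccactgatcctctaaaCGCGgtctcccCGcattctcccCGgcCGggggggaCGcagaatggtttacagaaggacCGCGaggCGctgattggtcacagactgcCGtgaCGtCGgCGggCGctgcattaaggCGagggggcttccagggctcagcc
Foxo1, chr3:52268087-52268336, plus strand: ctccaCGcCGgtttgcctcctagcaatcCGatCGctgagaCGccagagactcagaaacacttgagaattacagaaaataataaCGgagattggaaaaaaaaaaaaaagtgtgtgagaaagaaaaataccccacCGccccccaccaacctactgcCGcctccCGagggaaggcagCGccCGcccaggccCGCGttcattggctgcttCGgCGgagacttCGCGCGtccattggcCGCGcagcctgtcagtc
Gdnf, chr15:7809798-7810047, plus strand: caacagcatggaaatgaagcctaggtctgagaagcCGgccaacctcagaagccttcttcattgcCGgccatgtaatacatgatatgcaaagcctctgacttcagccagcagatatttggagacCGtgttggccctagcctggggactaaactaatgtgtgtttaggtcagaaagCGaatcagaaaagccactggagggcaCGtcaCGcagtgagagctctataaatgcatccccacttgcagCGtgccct
Ssbp3, chr4:106911220-106911469, plus strand: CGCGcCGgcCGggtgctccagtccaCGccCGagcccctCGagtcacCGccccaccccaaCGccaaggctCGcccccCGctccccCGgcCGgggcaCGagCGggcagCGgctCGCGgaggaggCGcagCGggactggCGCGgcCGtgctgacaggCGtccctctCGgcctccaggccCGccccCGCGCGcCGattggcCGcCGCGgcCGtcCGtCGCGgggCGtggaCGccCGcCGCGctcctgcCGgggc
Adgrb2, chr4:129984620-129984869, plus strand: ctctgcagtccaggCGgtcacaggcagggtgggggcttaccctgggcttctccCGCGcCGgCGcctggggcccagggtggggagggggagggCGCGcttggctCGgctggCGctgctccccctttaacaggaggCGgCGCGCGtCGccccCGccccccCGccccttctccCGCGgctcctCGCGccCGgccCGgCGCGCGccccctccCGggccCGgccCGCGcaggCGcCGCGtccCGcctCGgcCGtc
Smad6, chr9:64022060-64022309, minus strand: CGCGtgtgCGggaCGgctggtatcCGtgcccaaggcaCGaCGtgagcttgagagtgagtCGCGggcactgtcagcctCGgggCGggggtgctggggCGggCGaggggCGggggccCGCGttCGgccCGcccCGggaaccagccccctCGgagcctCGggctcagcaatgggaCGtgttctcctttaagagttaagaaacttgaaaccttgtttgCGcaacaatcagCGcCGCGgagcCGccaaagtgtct
They held between 7 CG dinucleotides (Gdnf) and 43 (Ssbp3), counted on 1 strand. Over all 16457 promoters of the table the median was 10, with quartiles of 3 and 19, and 93.0% held at least 1. As many CG dinucleotides as in Gsc (22) were found in 19.6% of those promoters, as many as in Lhx1 (26) in 12.2%, and as many as in Foxo1 (20) in 24.0%. Ssbp3 stood near the upper end, with as many in 0.863% of promoters, followed by Adgrb2 (35 CG, 3.60%) and Smad6 (27 CG, 10.7%). Gdnf lay below the median, and 60.1% of promoters held as many as it did. A promoter sequence was at hand for 568 of the 788 genes that name a region (72.1%). Under the 80% needed for a comparison, base composition was not compared between broad and narrower regions.

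The regions were at least 3001 bp wide, with a median of 3420 bp and quartiles of 3169 and 3852 bp. Only 147 reached 4000 bp. The 14574 narrower promoter regions with a peak in all 6 libraries had a median width of 1496 bp. At the lower limit stood the regions of Unc13d (3001 bp), Olfm2 (3002 bp) and Ak3 (3004 bp), and just outside it those of Arid3a, Klre1 and Plekhg3 (2999 bp each). Every promoter region of 3000 bp or more had a peak in all 6 libraries, so that criterion removed 0 regions. They made up 50.4% of the 1567 regions of that width with a peak in all 6 libraries.

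Merging made the regions wider than the peaks of most single libraries. The covered length, the number of bases of a region that peaks of 1 library cover, had a median of 3147, 3088 and 3079 bp in S7KO replicates 1, 2 and 4 and of 3125, 2768 and 3035 bp in WT replicates 1, 2 and 4. WT replicate 2 was the shortest, and the other 5 libraries lay close together. Peaks covered a median of 95.0%, 93.5% and 93.0% of the region in the S7KO libraries and 95.2%, 76.7% and 90.6% in the WT libraries. A single peak of at least 3000 bp was found in all 6 libraries at 177 regions (22.4%), in 1 to 5 libraries at the greater part, and in 0 libraries at 81. At these 81 the width came from peaks of different libraries that overlapped each other. A single unbroken peak in every library held 438 regions (55.5%), and 9 were split into several peaks in every library. Covered length varied more between libraries than at narrower promoter regions, with a median coefficient of variation of 12.4% against 6.26%, a difference that selection on merged width bears on.

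**Figure D1:**
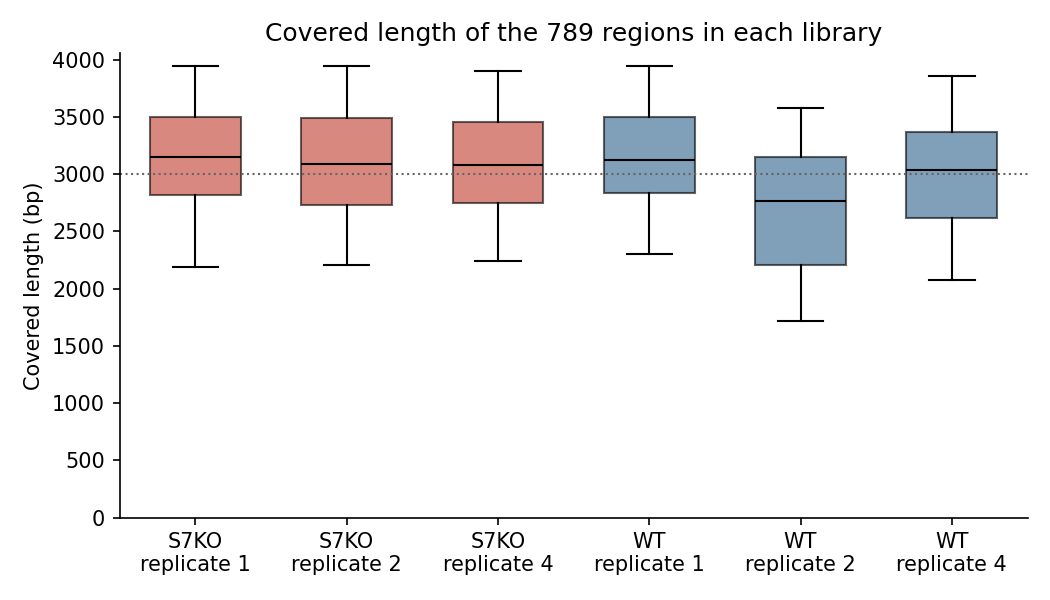
Covered length in bp (vertical axis) of the 789 broad promoter regions in each of the 6 libraries. Boxes span the quartiles around the median, whiskers the 10th to 90th percentile, and the dotted line marks 3000 bp. WT replicate 2 has the lowest median (2768 bp), and the other libraries lie between 3035 and 3147 bp.

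WT replicate 2 also had the fewest peaks in its list, 105754 against 118912 to 133695 in the others. An estimate of its background coverage from the enrichment and p-value of narrow peaks was the lowest too, 2.92 against 4.72 to 6.03 fragments per site. Read depth itself is not given in peak lists. It had the shortest covered length of the 6 at 445 of the broad promoter regions (56.4%), against 50.9% of all regions with a peak in all 6 libraries.

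Among the widest was the region of Hand1, a basic helix-loop-helix factor of heart and placenta, with 6845 bp (chr11:57827265-57834109). Its peaks covered 4911, 4776 and 5836 bp in S7KO and 5852, 2764 and 3975 bp in WT. Here the shortest and the longest values were both WT.

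Ccnd2, which encodes the G1 cyclin D2 of proliferating and differentiating spermatogonia, had a region of 6635 bp (chr6:127149388-127156022). Its covered length reached 5466, 5709 and 5708 bp in S7KO and 5810, 5154 and 5757 bp in WT. The means, 5628 ± 140 and 5574 ± 364 bp (SD, n = 3), differed by less than either spread. A further 9 of the widest were between 5398 and 5849 bp wide. They belonged to Csmd2, a transmembrane protein gene that shared its region with CK137956, the protocadherin gene Pcdh7, and Fst, which encodes the activin antagonist follistatin. The growth factor gene Pdgfa, the Polycomb-associated gene Sfmbt2, the homeobox gene Gsc of the embryonic organizer, the natriuretic peptide receptor gene Npr3, the protein kinase C substrate gene Marcks and the zinc finger factor gene Prdm12 completed them.

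Among these 11, Fst alone had separate genotypes, with 4893, 5675 and 4765 bp covered in S7KO and 4736, 4676 and 3853 bp in WT. The gap between the groups was smaller than the spread within either. Gsc owed its width to 1 library. S7KO replicate 1 covered 5287 bp of its 5431 bp in 1 peak, while the other 5 libraries covered 2561 to 2980 bp. At Npr3 the group means of 5048 ± 487 and 5052 ± 516 bp (SD, n = 3) were nearly equal.

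**Figure D2:**
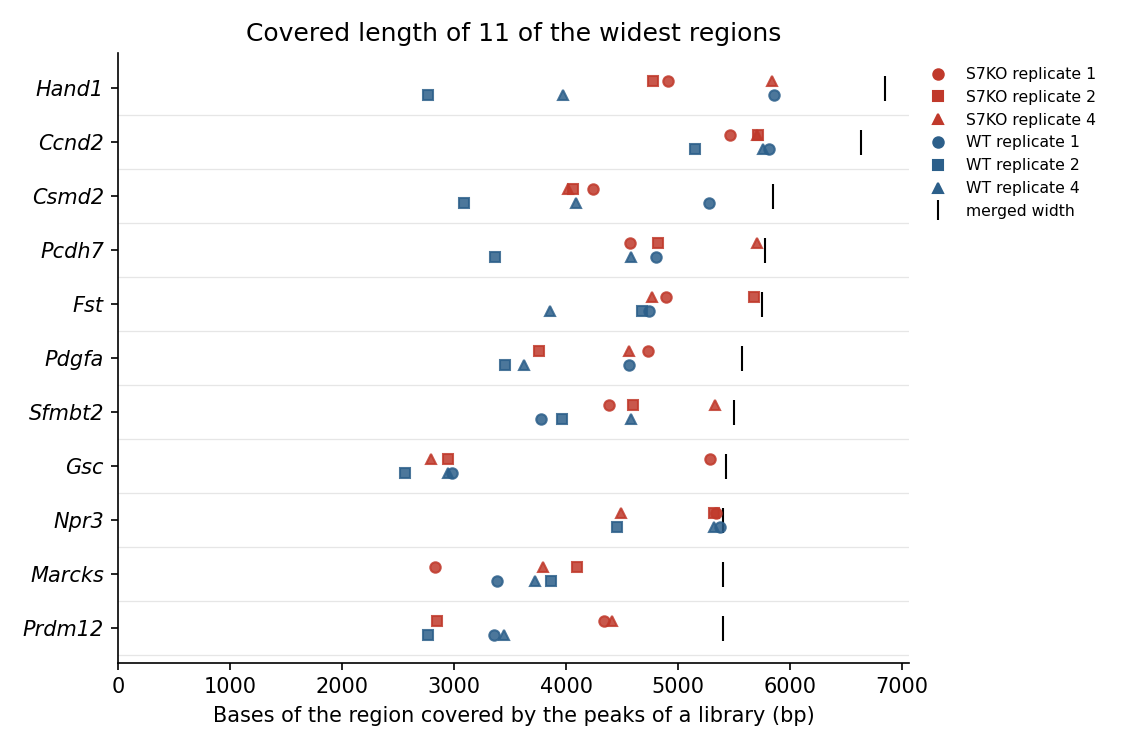
Covered length in bp (horizontal axis) of 11 of the widest regions, 1 point per library with S7KO in red and WT in blue and a vertical bar at the merged width. The points of the genotypes overlap at 10 of the 11, and the exception is Fst. Most points lie short of the bar, and at Gsc 1 S7KO library stands apart from the others.

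The widest peaks that every library held unbroken belonged to other genes. Ssbp3, which encodes a single-stranded DNA-binding cofactor of LIM homeobox proteins, was held in 1 peak in every library over 4891, 4973 and 4876 bp in S7KO and 5040, 4983 and 4835 bp in WT. The range of 4835 to 5040 bp was small for a region of 5054 bp. The zinc finger gene Zfp462 (smallest peak 4483 bp), the Pol I transcription factor gene Ubtf (4434 bp), the neighbours Prob1 and Mzb1 (4279 bp) and the T-box gene Tbx1 (4267 bp) followed. At Tbx1 the S7KO mean was 4274 ± 9.45 bp and the WT mean 4317 ± 41.0 bp (SD, n = 3).

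Histone genes stood out for the number of genes that 1 region held. Only 4 regions contained the 5′ ends of 3 genes, and all 4 were at clustered histone genes, those that supply histones during DNA replication. One held H3c1, H1f1 and H4c1 (4513 bp), the next H2ac11, H2bc11 and H4c9 (3997 bp), a further one H2ac13, H2bc13 and H3c10 (3945 bp) and the last H2ac20, H2bc21 and H2ac21 (3029 bp). At H2ac11 all 6 libraries were close together, at 3837 to 3991 bp covered. At H2ac13 WT replicate 2 covered 1912 bp and the others 3316 to 3897 bp. With these 4 counted, 6.50% of the 692 broad regions with a 5′ end inside held more than 1, against 9.72% of 11224 narrower ones.

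Broad regions extended mainly into the gene. In the 692 regions (87.7%) that contained a 5′ end, the median reach was 1223 bp upstream and 2238 bp downstream of it, and 74.1% reached farther downstream. The direction was shared with narrower promoter regions, of which 74.7% reached farther downstream, with medians of 564.0 and 917.5 bp. At 1000 bp downstream of the 5′ end, peaks covered 83.7% ± 0.850 of the broad regions in S7KO and 80.3% ± 4.65 in WT (SD over libraries, n = 3). At the same distance upstream they covered 47.8% ± 1.66 and 43.9% ± 5.88. In both cases the genotypes differed by less than the spread of WT, where replicate 2 was the lowest (75.3% downstream and 37.7% upstream). At narrower regions the downstream values were 35.5% and 33.7%.

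**Figure D3:**
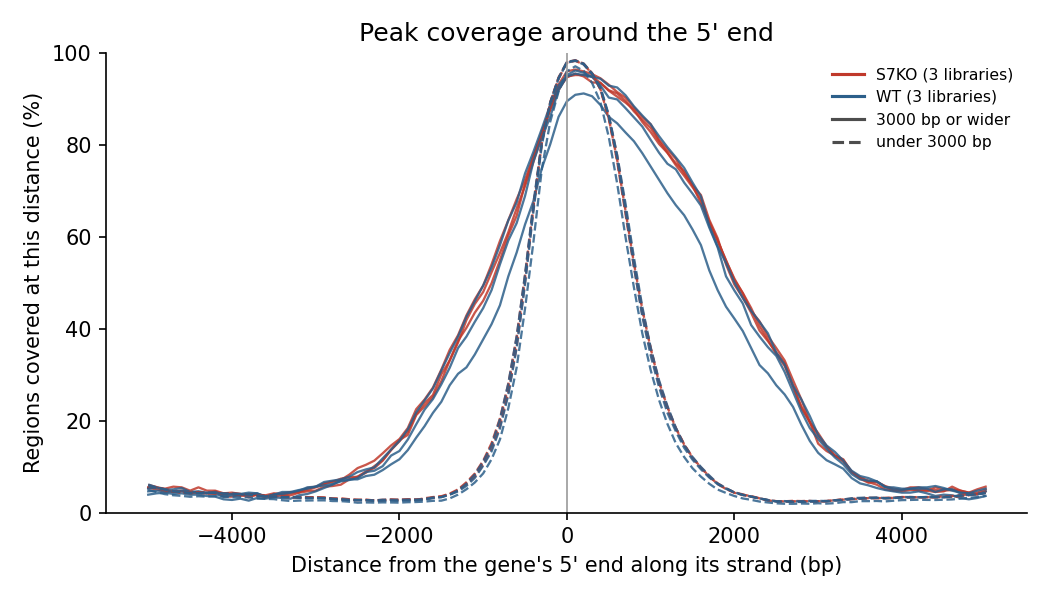
Percent of regions covered by a peak (vertical axis) by distance in bp from the 5′ end along the strand of the gene (horizontal axis), 1 line per library with S7KO in red and WT in blue. Solid lines are the 692 broad regions with a 5′ end inside and dashed lines the 11224 narrower ones. Solid lines fall more slowly downstream than upstream, and the lowest solid line is WT replicate 2.

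Wide regions were not the ones with the strongest peaks. Peaks were ranked within their own library by the −log10 q-value, with 0% the strongest, and the median rank of the best peak in the broad regions was 30.2%, 26.6% and 24.3% in S7KO and 29.6%, 30.7% and 24.3% in WT. In narrower promoter regions it was 8.46% to 11.3%. Peak values in these files are averages over the whole peak, which lowers them for wide peaks, so rank and width are not independent. Of the broad regions 91 (11.5%) had a median rank in the top 10%, against 51.2% of narrower promoter regions. The best ranked were Ppp1r10, a phosphatase 1 regulatory subunit gene (0.548%), and Rap2b, a small GTPase gene (1.23%). The lowest was Ccdc154 (94.8%), where WT replicate 2 covered 217 bp and S7KO replicate 1 covered 3677 bp.

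Gene groups were unequally represented. Of 20232 protein-coding autosomal genes with a known strand, 864 (4.27%) had a 5′ end within 3 kb of a broad region, which is the share to read each list against. The lists and regions were picked with earlier results of these data known, so shares are descriptions without a test. Most families of developmental regulators had shares well above it, with 26 of 73 LIM, Pax, Nkx and related homeobox genes (35.6%), 13 of 39 Hox genes in 10 regions (33.3%), 6 of 18 Sox genes (33.3%), 5 of 16 T-box genes (31.2%), 11 of 41 forkhead genes (26.8%) and 7 of 30 Gata, Klf and Sp genes (23.3%). Zinc finger genes of the Zfp series, the largest family of factors, had 14 of 360 (3.89%), near the share of all genes.

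Within the homeobox genes the widest were Gsc (5431 bp), Otx2 of the forebrain (5161 bp), Lhx1 (4848 bp) and Nkx1-1 (4787 bp), and the median width was 3964 bp. Their median rank was 48.5%, so their peaks were weaker than those of the broad regions as a whole (28.0%). The Otx2 region differed most by genotype of these 4, with 4151, 4903 and 4348 bp covered in S7KO and 3453, 2102 and 3275 bp in WT. The groups did not overlap, with S7KO longer, as at 6.86% of all regions with a peak in all 6 libraries. Only S7KO replicate 2 had a peak of 3000 bp or more there (4903 bp), so the choice by width bears on this gap. Broad regions of homeobox genes could also be alike in all libraries. Nkx2-1, a factor of lung and thyroid, was covered over 3887 to 4093 bp, and Pax6, of eye and brain, over 3548 to 3730 bp.

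**Figure D4:**
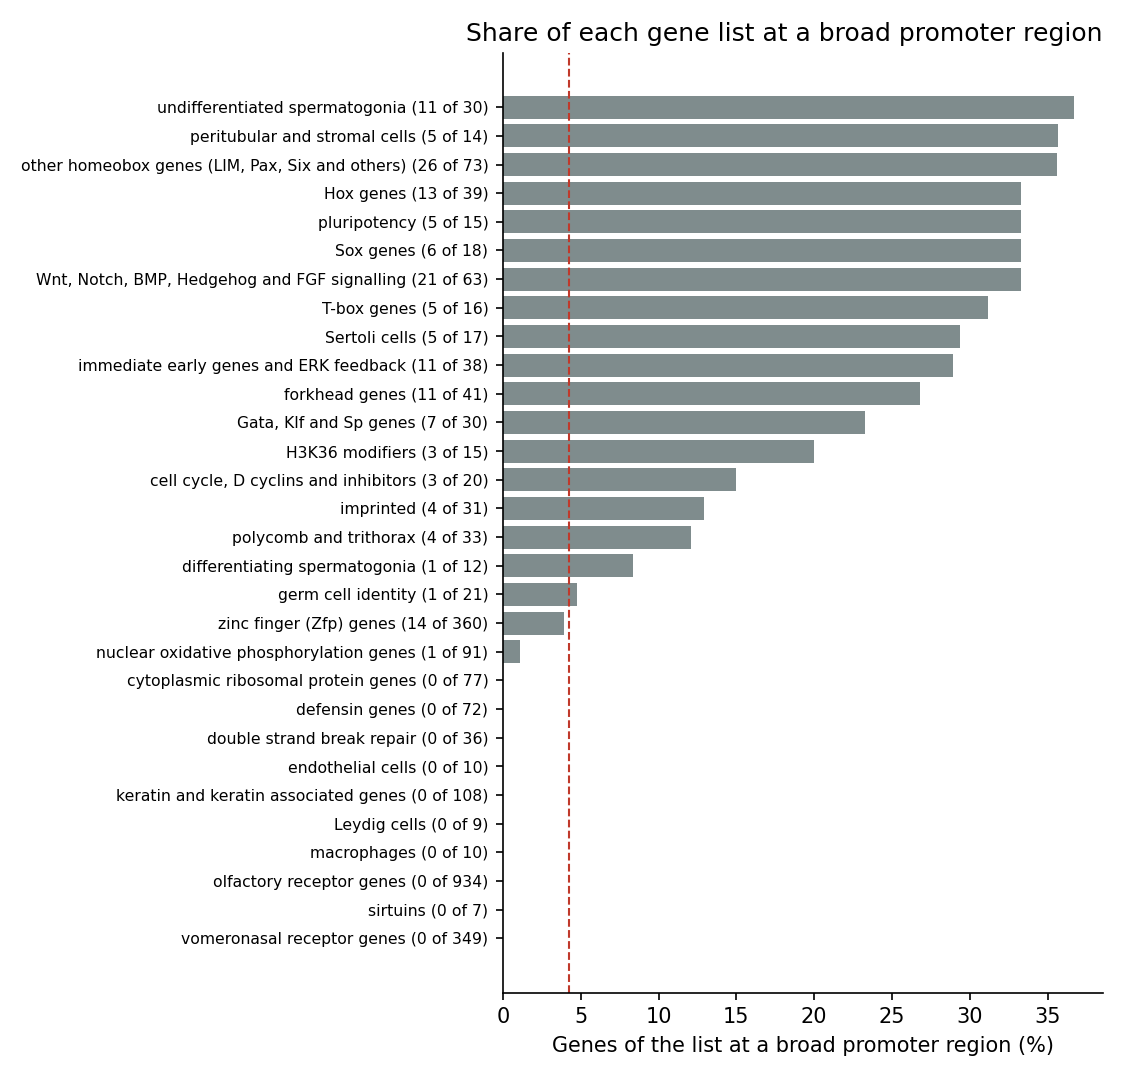
Percent of the genes of each list with a 5′ end within 3 kb of a broad promoter region (horizontal axis), with the number of genes in brackets. The dashed line marks the 4.27% of all protein-coding genes. Lists of developmental regulators, signalling genes and undifferentiated spermatogonia lie at 23.3% to 36.7%. In the same range are Sertoli cells, peritubular and stromal cells, pluripotency genes, and immediate early and ERK feedback genes. The number of lists with 0 genes is 10.

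Genes of undifferentiated spermatogonia, the pool that holds the stem cells, had 11 of 30 (36.7%) at broad regions. The lists overlap, so this share is not separate from the others. Lhx1, Foxo1, Foxc2, Eomes and T are also counted among developmental regulators, and Lin28a among pluripotency genes. Zbtb16 encodes PLZF, the protein used to check the cells, and its region of 3021 bp was covered over 2735, 2738 and 2844 bp in S7KO and 2946, 2379 and 3020 bp in WT. Gfra1, the GDNF co-receptor gene, was covered over 3259, 3329 and 3133 bp in S7KO and 3602, 2934 and 3222 bp in WT. In both, the WT libraries enclosed the S7KO libraries. The factor genes Lhx1 (4848 bp), Egr2 (3758 bp), Foxo1 (3655 bp), Eomes (3550 bp), Egr4, Pou3f1, T and Foxc2 were also on the list. At Foxo1, a regulator of stem cell maintenance, S7KO replicate 1 covered 3655 bp and the other 5 libraries 2770 to 2952 bp.

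Lin28a, which encodes an RNA-binding protein that blocks let-7 maturation, was the 1 gene of that list with genotypes apart. Its covered length reached 3799, 3726 and 3206 bp in S7KO and 3054, 2860 and 3075 bp in WT, a mean of 3577 ± 323 against 2996 ± 119 bp (SD, n = 3). Its best peak ranked at 49.8%, 49.7% and 44.6% in S7KO and 52.1%, 56.2% and 51.4% in WT, so stronger in every S7KO library. Of the 789 regions, 1 was longer and stronger in every S7KO library and 0 in every WT library, so Lin28a is a single case. The share of all regions apart by both measures was not taken, and covered length makes up the width that chose the regions. Differentiating spermatogonia had 1 of 12 genes, Ccnd2, and germ cell identity 1 of 21, Prdm14, a factor of primordial germ cells and pluripotency. Prdm14 was covered over 4026 to 4114 bp in 5 libraries and over 3026 bp in WT replicate 2.

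Markers of somatic testis cells were found as well. The Sertoli cell list had 5 of 17 (29.4%), the spermatogonial growth factor gene Gdnf (5049 bp), the factor genes Gata4 (4711 bp) and Nr5a1 (4533 bp), the anti-Müllerian hormone gene Amh (4493 bp) and the inhibin subunit gene Inhbb (4476 bp). Peritubular and stromal cells had 5 of 14 (35.7%), Pdgfra, Myh11, Col3a1, Vim and Col1a2. Leydig cell, endothelial and macrophage lists had 0 of 9, 0 of 10 and 0 of 10. A promoter region of any width in all 6 libraries was present for all 30 genes of undifferentiated spermatogonia, all 17 Sertoli genes, 13 of 14 peritubular genes, 7 of 9 Leydig genes, 9 of 10 endothelial genes and 6 of 10 macrophage genes. An open promoter thus did not tell the labelled cells from others, and the share of somatic cells in each library was not tested.

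Nr5a1, the steroidogenic factor, was covered over 4247 to 4533 bp in all 6 libraries. At Gdnf the S7KO libraries covered 4636, 5014 and 4588 bp and the WT libraries 4126, 4548 and 4580 bp. The groups did not overlap, by a margin smaller than the spread within each. Pdgfra, a receptor of platelet-derived growth factors, had a region on each side of its 5′ end. The one inside the gene (4181 bp) was covered over 4150, 4165 and 4176 bp in S7KO and 4009, 2937 and 2869 bp in WT, without overlap. The one that reached upstream (3103 bp) was covered over 1550, 1569 and 1674 bp in S7KO and 1576, 2169 and 2227 bp in WT, with overlap and a longer WT mean.

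Signalling genes had a share like that of the Hox and Sox genes. Of the genes of the Wnt, Notch, BMP, Hedgehog and FGF pathways 21 of 63 (33.3%) were at broad regions, with the Notch target Hes1 (3995 bp), the Hedgehog effector Gli1 (3973 bp), the Wnt effector Lef1 (3838 bp) and the ligand Wnt7b (3802 bp) the widest. Immediate early genes and feedback genes of ERK signalling had 11 of 38 (28.9%), and their median rank of 14.4% was stronger than that of all broad regions. Myc had the widest of them (5083 bp) but was split into 2 or 3 peaks in every library. Spry2, an inhibitor of receptor kinase signalling, was 1 peak of 3965 to 4285 bp in every library. At Ier5l the S7KO libraries covered 3570, 4821 and 3100 bp and the WT libraries 2859, 2591 and 2766 bp. Only S7KO replicate 2 had a peak of 3000 bp or more there (4821 bp), so the choice by width bears on this gap too.

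Among chromatin genes, 3 of 15 writers and erasers of H3K36 marks were at broad regions, the methyltransferase gene Nsd1 (3583 bp), the demethylase gene Kdm2b (3263 bp) and the acetyltransferase gene Kat2a (3031 bp), which shared its region with Hspb9. Their libraries overlapped. Polycomb and trithorax genes had 4 of 33 (12.1%), the trithorax genes Kmt2a, Kmt2c and Kmt2e and the H3K27 demethylase gene Kdm6b. Kmt2a was covered over 3541, 3533 and 3497 bp in S7KO and 3435, 3471 and 3078 bp in WT, which did not overlap. Sirtuin genes had 0 of 7. Sirt7 itself had a promoter region of 2129 bp (chr11:120624220-120626348), covered over 1989, 2071 and 1212 bp in S7KO and 2113, 1907 and 1872 bp in WT. A peak at this promoter in all libraries does not check the genotype, since the labels do not give the deleted part of the gene.

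The other lists ranged from a high share to none. Pluripotency genes had 5 of 15 (33.3%), Sox2, Klf4, Dppa4, Prdm14 and Lin28a. Cell cycle genes had 3 of 20 (Ccnd2, Cdk6 and E2f3), imprinted genes 4 of 31 (Dio3, Grb10, Peg3 and Gnas) and oxidative phosphorylation genes 1 of 91 (Atp5g2). Genes of double-strand break repair had 0 of 36 and cytoplasmic ribosomal protein genes 0 of 77, although 35 and 77 of them had a promoter region in all 6 libraries. Olfactory receptor, vomeronasal receptor, keratin and defensin genes had 0 of 934, 0 of 349, 0 of 108 and 0 of 72. Few of these 4 families had any promoter region in all 6 libraries, 68, 4, 41 and 14 genes.

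The comparison of genotypes asks whether broad promoters were longer or stronger without SIRT7. The mean of the library medians of covered length was 3105 ± 36.9 bp for S7KO against 2976 ± 186 bp for WT (SD, n = 3), a difference of 129 bp (4.32%) that was smaller than the spread of WT. Without WT replicate 2 the WT mean was 3080 bp. The same order was found at narrower promoter regions (1342 ± 9.61 and 1308 ± 62.9 bp) and at all regions with a peak in all 6 libraries (843.7 ± 17.4 and 794.3 ± 82.7 bp). Of the broad regions 550 had the longer mean in S7KO (69.7%), against 67.3% of all regions with a peak in all 6 libraries. With replicates 1 and 4 alone these shares were 53.1% and 48.5%.

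Covered length makes up the merged width that chose the regions, so regions whose genotypes did not overlap in it were counted as a description, with no test. Some regions reached 3000 bp through peaks of 1 genotype, such as Mrap, where S7KO replicate 2 alone had a peak of that width (3053 bp). Peaks of that width were found in S7KO alone at Capn11, Adgrb2, Otx2 and Ier5l, and in WT alone at Nid2, Tlx2 and Ptma. At such regions the choice by width bears on the gap between genotypes. Covered length was longer in all 3 S7KO libraries than in each of the 3 WT libraries at 69 of the 789 regions (8.75%). The same was seen at 6.86% of all regions with a peak in all 6 libraries, 6.94% of narrower promoter regions and 70 of the 778 equally wide regions outside promoters. It was longer in every WT library at 8 regions (1.01%), against 1.56% of all regions with a peak in all 6 libraries. Both shares were near the background, and the excess of longer S7KO regions was shared by the whole set of regions. The order of the counts depended on scaling. With covered length divided by the median of its own library, 24 broad regions were longer in S7KO and 40 in WT, with backgrounds of 3.25% and 5.59%. With WT replicate 2 not compared, 80 were longer in S7KO and 65 in WT, with backgrounds of 8.48% and 8.73%.

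Peak rank did not enter the choice of regions directly. Averages over a peak are lowered in wide peaks, so rank is tied to the width that chose the regions. The counts by rank are thus a description too. With 3 libraries against 3, an exact two-sided permutation test of 1 region cannot give a p below 0.1, which is reached when the groups do not overlap. By rank the peak was stronger in every S7KO library at 40 regions (5.07%), against 5.99% of all regions with a peak in all 6 libraries. It was stronger in every WT library at 11 (1.39%), against 1.36%. With equal numbers of peaks taken from each library the counts were 16 and 36, so their order turned, and the backgrounds were then 3.17% and 3.31%. Without WT replicate 2 the counts on the same regions were 63 and 46, with backgrounds of 8.20% and 6.10%.

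Among the 69 regions the median difference was 19.4% of the WT mean. The 5 largest relative differences were at H4c18, a histone H4 gene, at Capn11, a testis-expressed calpain gene, at Adgrb2, an adhesion receptor gene of brain, at Mrap, the accessory protein gene of the ACTH receptor, and at Gipc2. H4c18 was covered over 3138, 3152 and 3091 bp in S7KO and 3056, 1146 and 550 bp in WT. Its difference of 97.4% thus came from WT replicates 2 and 4, and WT replicate 1 lay next to the S7KO libraries. At Adgrb2 the values were 3464, 2460 and 3276 bp against 1428, 1489 and 2387 bp, with means of 3067 ± 534 and 1768 ± 537 bp (SD, n = 3). Only S7KO libraries had a peak of 3000 bp or more at Adgrb2.

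Capn11 separated by a wider margin, but only S7KO libraries had a peak of 3000 bp or more there, so the choice by width bears on it. Its region (chr17:45662708-45666910) lay 2999 bp upstream of the 5′ end, at the edge of the window, and was covered over 2798, 3820 and 3495 bp in S7KO and 1725, 1952 and 1661 bp in WT. By rank the order was opposite, with the best peak stronger in every WT library. The widest peak there was 2295, 3820 and 3495 bp in S7KO and 668, 1351 and 716 bp in WT. Rank is lowered in wide peaks, so the 2 orders are not independent. The WT libraries had 2 or 3 peaks there and the S7KO libraries 1 or 2. By list, the 69 included 2 of the 26 homeobox regions outside the Hox clusters, 1 of 21 signalling regions, 1 of 11 regions of undifferentiated spermatogonia genes and 1 of 11 of immediate early and feedback genes. The 69 also held 2 of 5 pluripotency, 2 of 13 Zfp, 1 of 3 cell cycle and 1 of 6 Sox regions. Also among them were 1 of 4 Polycomb and trithorax, 1 of 5 Sertoli and 1 of 6 peritubular and stromal regions. The count was 0 of 10 Hox, 0 of 11 forkhead, 0 of 5 T-box and 0 of 7 Gata, Klf and Sp regions. It was also 0 of 3 H3K36 modifier regions, 0 of 4 imprinted regions and 0 in lists with 1 region. Lists hold few regions and share some of them. Among all broad regions the share was 8.75%.

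Among the 8 regions that were longer in WT were those of Ptma, Chd3, Tlx2, Nid2, Tfap2b, Rapgefl1 and Smad6. Smad6, which encodes an inhibitor of BMP signalling, had the largest relative difference, 1552, 1528 and 1516 bp in S7KO and 2872, 2176 and 1767 bp in WT. The S7KO libraries lay close together (SD 18.3 bp), and the WT libraries were spread widely (SD 559 bp). Nid2, a basement membrane gene, was covered over 2127, 2779 and 2238 bp in S7KO and 3081, 2885 and 3114 bp in WT. Tlx2, a homeobox gene of enteric neurons, was covered over 2640, 2648 and 2548 bp against 2837, 3007 and 3198 bp. Ptma and Tfap2b had means of 2829 ± 43.5 and 2155 ± 30.4 bp in S7KO and of 3211 ± 312 and 2460 ± 382 bp for WT (SD, n = 3). Only WT libraries had a peak of 3000 bp or more at Nid2, Tlx2 and Ptma. At Nid2 and Ptma the peak rank had the opposite order and was stronger in every S7KO library, where rank and width are again not independent.

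**Figure D5:**
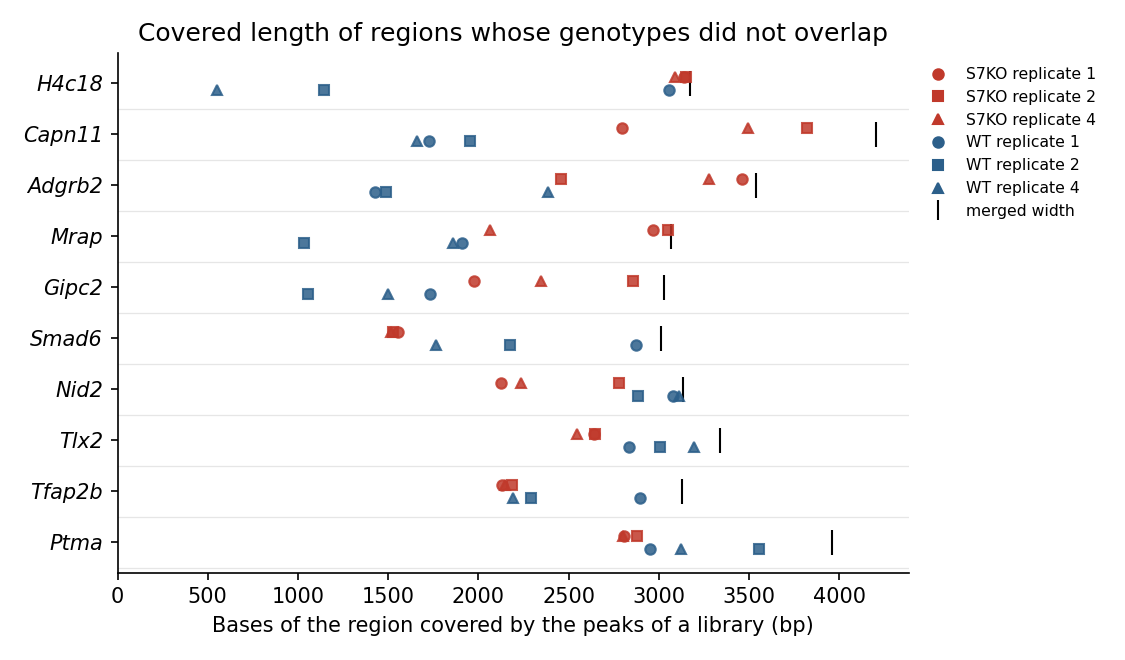
Covered length in bp (horizontal axis) of the 5 regions with the largest relative difference in each direction among those whose genotypes did not overlap, 1 point per library, with a vertical bar at the merged width. The upper 5 are longer in S7KO (red) and the lower 5 in WT (blue). At H4c18, WT replicate 1 (3056 bp) lies next to the S7KO points, while at Capn11 the nearest values are 2798 bp (S7KO) and 1952 bp (WT).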

How the data were processed

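ATAC-seq was performed on 6 samples of Pnd 5 spermatogonia, 3 S7KO and 3 WT. According to the study, the authors trimmed reads with Trim Galore 0.6.6, aligned them to mm10 with Bowtie2 2.4.4.1, removed duplicated, multiply mapped and mitochondrial reads, shifted ends for the Tn5 insertion and filtered fragments by size. The size filter in the Methods had a lower limit on fragment length, while the Results of the study speak of nucleosome-free fragments. The authors called broad peaks per sample with MACS2 2.2.5. Peak width is therefore given as called, not as the extent of DNA free of nucleosomes. The deposited lists give for each peak the fold enrichment over background (a ratio), the −log10 p-value and −log10 q-value and a display score, each averaged over the peak, and the highest q-value was 0.0983. Enrichment depends on depth, and shallow libraries can give fewer and shorter peaks. The lists hold no read counts, so fragments could not be tested.

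Peaks sharing at least 1 bp were merged over the 6 lists with Python 3.11.15, pandas 2.3.3 and NumPy 2.4.6. The 5′ ends came from the RefSeq gene table of GRCm38.p6 (20665 autosomal protein-coding genes), and 20232 (97.9%) had a strand, 16457 from the RefSeq promoter table and 3775 from GENCODE by symbol. Where both gave a strand, 99.3% were equal. Regions were named by the gene whose 5′ end lay inside and nearest to the centre. Where no 5′ end lay inside, the gene with the nearest 5′ end within 3 kb gave the name. Pdgfa, Ubtf, Zfp462, H4c18 and Tfap2b were among the regions named in this way. Per library and region, the covered length, the number of peaks and the rank of the best peak by −log10 q-value were taken. Genotypes were compared by counting regions whose 3 and 3 libraries did not overlap. For rank, the exact permutation test over 20 assignments then gives its smallest p of 0.1, but rank is tied to width. The counts for rank and for covered length, on which the regions were chosen, are descriptions. The code was tested on simulated peak lists.

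Named were the genes of the 12 widest regions, of 3 on either side of the width limit, up to 4 of each of 30 gene lists (the widest), up to 5 with the largest relative difference in each direction among regions whose genotypes did not overlap, the 5 with the widest single peak in their narrowest library, the 5 with most 5′ ends, and Sirt7. Others were named after their values were seen. Some regions are not reported here. Gene counts of the lists leave out symbols that the gene table does not hold. The regions, lists and rules were chosen with earlier results of these data known. Alternatives were the width limit, promoter window, q-value limit, equal peak numbers, merging across gaps, coverage, scaling, a replicate block and fewer libraries.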

Additional observations from a re-analysis of the deposited data

How the results depend on the processing

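The number of broad promoter regions was 3960 with a minimum of 2000 bp and 147 with 4000 bp, and 685 to 776 under other choices of window, q-value, peak number, coverage and libraries (789 with gaps of 100 bp bridged). The difference of the median covered length (129 bp) stayed positive in all 15 alternatives. In each it moved by less than the spread of WT (186 bp), a weak limit that is larger than the difference itself. The difference was 24.3 to 187 bp with 1 library left out, lowest without WT replicate 2. The counts of regions with separate genotypes are given next as longer in S7KO, longer in WT, stronger in S7KO and stronger in WT. They were 69, 8, 40 and 11 as reported, 318, 59, 177 and 50 with 2000 bp, and 16, 0, 6 and 2 with 4000 bp. The backgrounds were 6.86%, 1.56%, 5.99% and 1.36% at each of these width limits. Replicates 1 and 4 alone gave 125, 93, 77 and 77. With 1 library left out and the regions chosen again they ranged over 81 to 184, 13 to 64, 53 to 143 and 16 to 45, with 64 and 45 reached without WT replicate 2. Fewer libraries separate more regions by construction, and the backgrounds rose too. With 1 library left out they were 8.50% to 18.8%, 3.09% to 8.70%, 8.24% to 18.5% and 2.82% to 6.16%. On the regions kept as chosen without WT replicate 2 (added after seeing the data) the counts were 80, 65, 63 and 46. Their backgrounds were 8.48%, 8.73%, 8.20% and 6.10%. Equal numbers of peaks gave 16 stronger in S7KO and 36 in WT, with backgrounds of 3.17% and 3.31%. Coverage of 50% in each library left 6 stronger in WT, with a background of 1.15%. Scaling by the library median gave 24 longer in S7KO and 40 in WT, with backgrounds of 3.25% and 5.59%. It was the 1 of 17 alternatives with fewer regions longer in S7KO than in WT.

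With a replicate block, in which same-numbered libraries were compared and all 3 differences had to share a sign, the counts were 187, 35, 134 and 51, with backgrounds of 18.8%, 5.32%, 19.2% and 5.95%. The deviations of same-numbered libraries correlated at 0.134, 0.0391 and 0.141 for replicates 1, 2 and 4. Since 1 of these was under 0.1, the libraries were taken to share only a number.

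Depth is unknown from peak lists, and its part in split or short peaks was not tested. The lists give no fragment counts and so no size of a change in accessibility.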

Other observations

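Broad promoter regions were found on every autosome. Chromosome 11 held most (77) and chromosome 18 fewest (25). Relative to the promoter regions with a peak in all 6 libraries, the share was highest on chromosome 14 (7.62%) and lowest on chromosome 7 (3.90%). The X chromosome, which was outside the selection, had 38 regions of 3000 bp or more in all 6 libraries at any position.

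Some regions were wide in 1 library alone. At Irx3, a homeobox gene, WT replicate 1 covered 3011 bp, while the other libraries covered 644 to 1136 bp. The best peak there had a median rank of 84.6%, among the weakest of the broad regions. These regions were chosen after their values were seen.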
